A study of Mus musculus with 768 samples.

Results

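The estrogen receptor Esr1, the progesterone receptor Pgr and 4 transcription regulators of hormone-sensing mammary cells (Foxa1, Gata3, Cited1 and Tbx3) were followed cell by cell in the mammary glands of control mice and of mice with active Notch1. The 6 genes were taken by name, and all 6 were present among the 23997 gene names counted on both plates. The cells came from inguinal glands of C57BL/6 mice after what the labels call 3 to 4 months of lactation. Every mouse had WAP-CRE, in which a milk gene's promoter drives Cre, so recombination is limited mainly to luminal cells that have entered the alveolar programme. Control mice were WAP-CRE; R26-tdTomato, in which Cre releases a red reporter. The other mice were WAP-CRE; R26-N1ICD-EGFP, in which it releases the intracellular, constitutively active part of Notch1 with a green reporter. Sorted reporter-positive cells were read out by Smart-Seq2, which amplifies full-length cDNA of 1 cell per well, on 1 plate of 384 wells for each genotype.

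Luminal cells of the mammary gland are of several kinds. Hormone-sensing cells carry the estrogen and progesterone receptors and pass the hormonal signal on to their neighbours through secreted ligands, while luminal progenitors and alveolar cells mostly lack the receptors and are known by Kit, a receptor tyrosine kinase, and Elf5, a transcription factor of the secretory lineage. In receptor-positive cells Foxa1 opens chromatin for the estrogen receptor, Cited1 is a coactivator of it, Gata3 is needed for luminal identity more broadly and Tbx3 is a repressor active in the hormone-sensing lineage.

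A well was kept when it held 50000 reads or more and 1000 genes or more, which left 617 cells, from 86.98% of the 384 control wells and 73.7% of the 384 N1ICD-EGFP wells. Each share of cells below is a share of the kept cells of its plate or of the set named. Their depth ran from 50048 to 608476 reads (median 241888) in the control and from 51736 to 615615 (median 348469) in N1ICD-EGFP, and no kept cells had identical counts. N1ICD-EGFP cells held fewer genes, with a median of 2482 against 3598, or 2079 against 3102 at an equal depth of 50000 reads. This moved with the lower share of cells of every member, and its part was not tested. No animal is named in the labels. Each plate therefore counts as 1 sample, and no difference has a replicate check. Genotype cannot be told apart from plate or from reporter colour. Levels are CPM, the reads of a gene summed over cells and scaled to 1000000 reads, and shares are the percent of cells with at least 1 read after every cell was thinned to 50000 reads. Intervals are exact, at 95%, and reflect counting error only: without molecular identifiers, PCR copies of 1 molecule are counted as separate reads. In sums over a plate, fewer cells of a type and less RNA per cell cannot be told apart. Markers of leukocytes were higher on the N1ICD-EGFP plate in 9 of 10 genes, with a summed level of 2212 CPM against 684, and 54 N1ICD-EGFP and 24 control cells carried reads of 3 or more of them. Over all cells the 3 endothelial markers were all higher (76.1 CPM summed, against 25.1), 2 of 3 fibroblast markers were higher (184.4 against 34.8 CPM), 3 of 6 luminal progenitor and alveolar genes were lower (6153 against 20564 CPM) and none of the 4 pan-luminal markers (Epcam, Krt8, Krt18 and Cdh1) differed by 1.5 times. Of the 5 basal markers (Krt5, Krt14, Acta2, Trp63 and Oxtr) 2 were lower and 1 was higher (305.4 against 406.8 CPM summed).

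The 6 genes lie on 6 chromosomes (GRCm38, the assembly behind mm10; all are annotated as protein-coding). Esr1 spans chr10:4611989-5005633, Pgr chr9:8898900-8968611, Foxa1 chr12:57540628-57548029, Gata3 chr2:9857078-9887953, Cited1 chrX:102247378-102252181 and Tbx3 chr5:119670534-119684724. Because Pgr, Foxa1, Cited1 and Esr1 were read in the same control cells, their promoters were searched for letters bound by members of the group and by the Notch effector RBPJ. RefSeq promoter windows (GRCm38.p6) matched 5 of the 6 genes by symbol, in 8 windows, and none was matched for Tbx3. Bases 250 to 11 before the start were searched on both strands for 5 motifs. The first was the forkhead motif TGTTTAC. Its variant with a guanine was TGTTTGC. The motif of GATA factors was AGATAA. The core of an estrogen response element was AGGTCA. The motif of the RBPJ protein was TGGGAA. Foxa1 and Esr1 each had 1 forkhead match, on the reverse strand, and both are shown with 10 bases on either side, the match in capitals. The Foxa1 match (chr12:57546236-57546262, minus strand) is TGTTTAC and the Esr1 match, at the first of its windows (chr10:4611828-4611854, plus strand), is the guanine variant. These starts are not the outermost ones: by the gene models the Foxa1 match lies inside the Foxa1 gene, upstream of a shorter transcript, the Esr1 match lies in the first exon of a longer Esr1 transcript, and the Pgr and Gata3 windows lie inside their genes' spans.
Foxa1: atactgctttGTAAACAaagtgagggc
Esr1: ttgtccttctGCAAACAtctatctgta
The forkhead motif was present in 3.06% and its guanine variant in 4.17% of all 32851 windows. Cited1, which was 10.8-fold lower over all cells, is shown by the window upstream of its outermost start, which held none of the 5 motifs (chrX:102252192-102252431, minus strand).
Cited1: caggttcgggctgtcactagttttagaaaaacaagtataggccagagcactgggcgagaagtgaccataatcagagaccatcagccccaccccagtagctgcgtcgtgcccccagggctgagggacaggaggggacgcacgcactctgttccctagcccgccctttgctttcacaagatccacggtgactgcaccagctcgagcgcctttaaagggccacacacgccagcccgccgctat
The Pgr window and the Gata3 window held none of them either, and 1 of the 2 other Cited1 windows held the estrogen response core, as did 13.5% of all windows. The GATA and RBPJ motifs, present in 9.74% and 20.8% of all windows, were in none of the members' windows. These matches describe the letters of the windows and do not show binding.

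Over all kept cells 4 of the 6 members were at least 1.5 times lower on the N1ICD-EGFP plate and none was 1.5 times higher. The same was true of 16.7% of the 12021 genes with at least 5 CPM on either plate, and 22.5% were 1.5 times higher. The median log2 ratio of the members was -2.55, against 0.07 over those genes.

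Both receptors were among the 4. Esr1 stood at 25.1 CPM in the control (23.998 to 26.2) and at 4.21 CPM in N1ICD-EGFP (3.81 to 4.64), a 5.95-fold lower level. It was read in 56 control cells (16.8%, 12.9 to 21.2) and in 13 N1ICD-EGFP cells (4.59%, 2.47 to 7.73). The share intervals of the plates did not overlap. Without thinning they were 21.9% and 5.65%. Pgr, which is itself a target of the estrogen receptor, stood at 122.3 CPM in the control (119.95 to 124.8) and at 17.03 CPM in N1ICD-EGFP (16.2 to 17.9), 7.18-fold lower. It was read in 78 control cells (23.4%, 18.9 to 28.3) and 10 N1ICD-EGFP cells (3.53%, 1.71 to 6.40), or 25.1% and 5.30% without thinning.

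A single cell carried much of what remained of receptor reads on the N1ICD-EGFP plate. It held 732 of the 1658 Pgr reads of that plate (44.1%, 1563 CPM in the cell) and 27.8% of the 410 Esr1 reads (243.5 CPM). The same cell had fibroblast genes, with the collagens Col1a1 and Col3a1 at 2563 and 13926 CPM and Pdgfra at 643 CPM, and had no read of Krt8, Krt18, Epcam, Prlr or of the 4 other members. With the 2 N1ICD-EGFP and 4 control cells that had 2 or more of 3 fibroblast markers left out, Pgr was 12.9-fold and Esr1 8.24-fold lower. That alternative was chosen after this cell had been seen.

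The transcription factor Foxa1 stood at 109.5 CPM in the control (107.2 to 111.8) and at 10.9 CPM in N1ICD-EGFP (10.3 to 11.6), 10.04-fold lower. It was read in 69 control cells (20.7%, 16.4 to 25.4) and in 6 N1ICD-EGFP cells (2.12%, 0.782 to 4.56). Cited1 stood at 103.9 CPM (101.7 to 106.1) and at 9.63 CPM (9.02 to 10.3), 10.8-fold lower, with reads in 63 control cells (18.9%, 14.8 to 23.5) and 4 N1ICD-EGFP cells (1.41%, 0.386 to 3.58). Both genes were therefore rarer than the receptors on the N1ICD-EGFP plate in number of cells, while on the control plate the 4 genes were read in 56 to 78 cells each.

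Gata3 and Tbx3 did not pass 1.5 times. Gata3 stood at 534 CPM in the control (529 to 539) and 470.4 CPM in N1ICD-EGFP (466 to 475), a log2 ratio of -0.18, although it was read in fewer cells, 88.6% (84.7 to 91.8) against 63.96% (58.1 to 69.6). Tbx3 stood at 46.8 CPM (45.4 to 48.4) and 33.3 CPM (32.2 to 34.5), a log2 ratio of -0.48, with reads in 23.95% (19.5 to 28.9) and 13.4% (9.68 to 17.96) of cells. Its ratio differed between plate regions, at -0.03 in well columns 1 to 12 and -1.08 in columns 13 to 24, and passed 1.5 times in the latter. Leaving out cells with more genes than the plate median plus 3 median absolute deviations moved Pgr to a log2 ratio of -1.94 and Cited1 to -2.01, with both still past 1.5 times lower. Of the 40 control cells so left out, 35 had reads of 3 or more of the members other than Gata3.

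**Figure D1:**
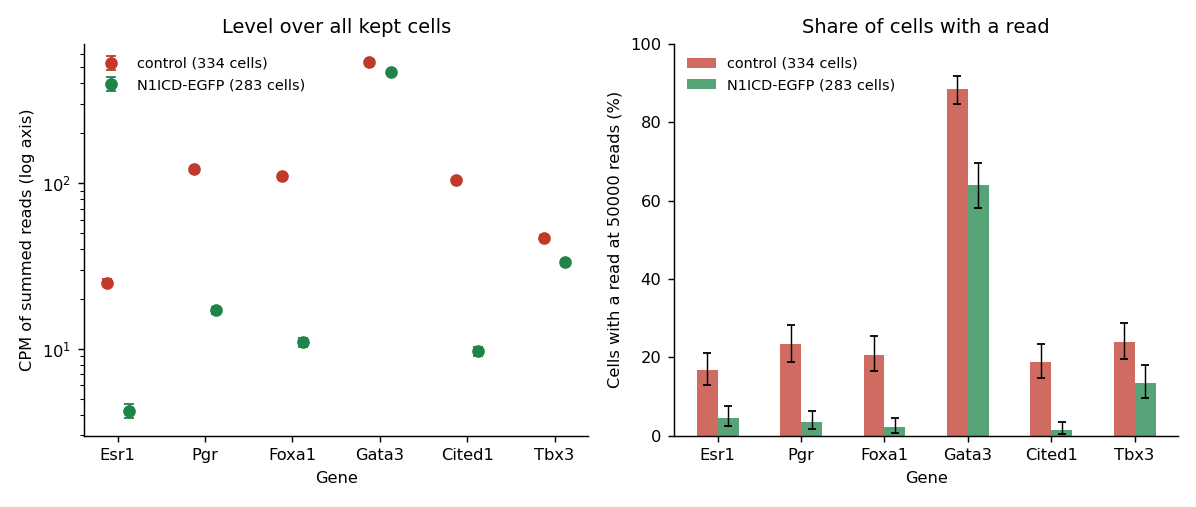
Level of each member over all kept cells (left, CPM of summed reads on a log axis, exact Poisson 95% intervals) and percent of cells with a read after thinning to 50000 reads (right, Clopper-Pearson 95% intervals), for the control (red) and N1ICD-EGFP (green) plates. Esr1, Pgr, Foxa1 and Cited1 are lower in N1ICD-EGFP in both panels, Gata3 is close in level at 534 and 470.4 CPM, and every share is lower.

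Compared per kilobase of exon, so that genes of different length can be set side by side, the order in the control was Gata3 (134.3 CPM per kb), Cited1 (59.2), Foxa1 (32.9), Pgr (14.3), Tbx3 (7.07) and Esr1 (1.84). In N1ICD-EGFP it was Gata3 (118.3), Cited1 (5.49), Tbx3 (5.03), Foxa1 (3.28), Pgr (1.99) and Esr1 (0.308). Counting intervals were narrow, but per kb those of Cited1 and Tbx3 in N1ICD-EGFP overlapped. The spread between animals is not known, so the order describes these plates alone. Esr1 had the lowest level per length on both plates although it was read in about as many control cells as Cited1.

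On the control plate the receptors, Foxa1 and Cited1 were read in the same cells. Of the 69 cells with Foxa1, 61 also had Pgr (88.4%, 78.4 to 94.9), against 17 of the cells without Foxa1 (6.42%, 3.78 to 10.1). Of the 63 cells with Cited1, 56 had Foxa1 (88.9%, 78.4 to 95.4), against 13 of those without Cited1 (4.80%, 2.58 to 8.06). Esr1 was read in 56 cells, with Pgr in 39 of them (69.6%, 55.9 to 81.2) and Foxa1 in 37 (66.1%, 52.2 to 78.2). Tbx3 was read in 80 cells, of which 49 had Pgr (61.3%) and 42 had Foxa1 (52.5%). Taken from the other side, Tbx3 was read in 49 and Esr1 in 39 of the 78 Pgr cells. Gata3 was read in 94.9% to 98.6% of the cells with any other member, and in 86.04% to 86.7% of the cells without it. These co-detections share cell depth, and the cells with 3 or more of the 5 members other than Gata3 had more genes, with a median of 4558 after thinning against 2969 in the other control cells.

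The 2 receptors split the control cells in an unequal way. Both were read in 39 cells, Pgr without Esr1 in 39, Esr1 without Pgr in 17 and neither in the rest. Cells with Pgr alone were closer to those with both: 26 had Foxa1 and 20 had Cited1, against 35 and 35 of the cells with both receptors, and the prolactin receptor Prlr stood at 6848 and 9736 CPM. The 17 cells with Esr1 alone differed from those with both, with Foxa1 in 2, Cited1 in none, Prlr at 55.9 CPM, and Kit in 16 and Elf5 in 14. They also had fewer reads (median 215141 against 312682) and fewer genes after thinning (median 3247 against 4540) than the cells with both. The part of these differences was not tested. A count of 0 in 17 cells allows a share of up to 19.5% (upper Clopper-Pearson limit). On the N1ICD-EGFP plate both receptors were read in 4 cells, Esr1 alone in 9, Pgr alone in 6 and neither in the rest. After thinning none of the cells with neither had a Foxa1 or Cited1 read, which allows a share of up to 1.39% (upper Clopper-Pearson limit).

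**Figure D2:**
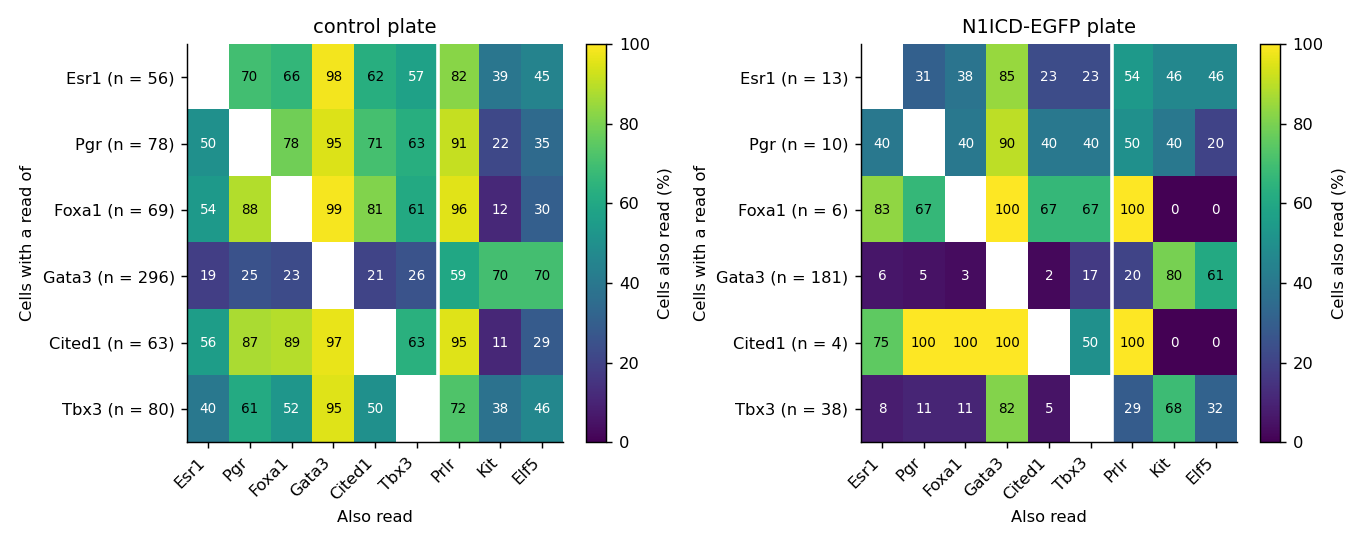
Percent of the cells with a read of the row gene that also had a read of the column gene, after thinning to 50000 reads, on the control (left) and N1ICD-EGFP (right) plates, with the number of cells in each row. On the control plate Pgr, Foxa1 and Cited1 rows share high values with one another and lower values with Kit and Elf5. On the N1ICD-EGFP plate the Foxa1 and Cited1 rows rest on 6 and 4 cells, none of which had a Kit or Elf5 read.

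Counted per cell, 2 or more members were read in 38.02% of control cells (32.8 to 43.5) and 15.2% of N1ICD-EGFP cells (11.2 to 19.9), or 44.9% and 17.7% without thinning. At least 3 were read in 22.2% and 2.83%, and all 6 in 26 control cells and 1 N1ICD-EGFP cell. No member was read in 28 control and 93 N1ICD-EGFP cells. Where exactly 1 was read it was Gata3 in all but 8 cells of each plate. Where exactly 2 were read the pair was Gata3 with Tbx3 in 26 of 53 control cells and 25 of 35 N1ICD-EGFP cells, and Gata3 with Esr1 in 12 and 6. Cells with 2 members on the N1ICD-EGFP plate were thus mostly Gata3 and Tbx3 cells with neither receptor.

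Cells with 3 or more of the 5 members other than Gata3, a grouping made after the values had been seen, numbered 61 on the control plate (18.3%) and 6 on the N1ICD-EGFP plate (2.12%). On the control plate 13 cells lay just inside this limit with 3 members and 15 just outside it with 2. On the N1ICD-EGFP plate 2 lay just inside and 3 just outside. The 61 control cells held 96.98% of all Cited1 reads of their plate, 93.5% of Pgr, 92.9% of Foxa1, 77.2% of Esr1, 76.3% of Tbx3 and 31.1% of Gata3. The 6 N1ICD-EGFP cells held 99.8% of Foxa1 and 97.9% of Cited1 reads of theirs, but 37.4% of Pgr, 12.2% of Esr1, 6.66% of Tbx3 and 4.99% of Gata3. Foxa1 and Cited1 reads lay mostly in such cells on both plates, which the grouping itself favours, since both genes count toward it. Tbx3 also counts toward it, but its reads on the N1ICD-EGFP plate lay mostly outside these cells.

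The levels within these cells were close for some members, as a description of cells that were chosen on them. Foxa1 stood at 412 CPM in the control cells and 471 CPM in those of N1ICD-EGFP, Cited1 at 408 and 407, and Gata3 at 673 and 1014. Pgr stood at 463 and 275.4 CPM, Esr1 at 78.4 and 22.2 and Tbx3 at 144.7 and 95.9. In the 6 N1ICD-EGFP cells Foxa1 ran from 77.7 to 691 CPM, and Pgr was at 0 in 2 of them and from 74.6 to 911 CPM in the others. Prlr was high in all 6, from 3910 to 6545 CPM, Elf5 was at 0 in all 6 and Kit in 5. None of the 6 had a read of the eGFP row, while 81 kept cells of the plate (28.6%) had 5 or more, so whether these cells carried the transgene was not tested.

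Kit or Elf5 was read after thinning in 453 cells, 76.6% of control cells and 69.6% of N1ICD-EGFP cells. In these cells too 4 of the 6 members were at least 1.5 times lower in N1ICD-EGFP, and Tbx3 was 1.5 times higher. Among the 11321 genes with at least 5 CPM on either plate 18.4% were lower and 20.9% higher by as much. The median of the members was -3.04, against 0.08 over those genes. Both the count and the median rest on 19 control cells described below: without them 4 members reached 5 CPM, of which 2 were lower (Esr1 and Pgr) and 1 higher (Tbx3), with a median of -0.59. Pan-luminal markers did not differ by 1.5 times (0 of 4), with Krt8 at 796 and 839 CPM. Of the leukocyte markers 6 of 9 measured were lower and 2 higher, and their summed level was 200.8 and 84.97 CPM.

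Pgr stood at 65.7 CPM in the control cells with Kit or Elf5 (63.7 to 67.9) and at 2.43 CPM in the N1ICD-EGFP ones (2.07 to 2.83), 27.1-fold lower, with reads in 32 cells (12.5%) and 4 cells (2.03%). Esr1 stood at 12.4 CPM (11.5 to 13.3) and 2.84 CPM (2.45 to 3.27), a log2 ratio of -1.80, with reads in 29 cells (11.3%) and 6 cells (3.05%). Foxa1 had 2779 reads in 24 of the control cells, or 47.8 CPM (46.05 to 49.6), and no read in the N1ICD-EGFP cells. With 3 reads over the set taken as the limit of detection, it was at least 1089-fold lower. That size depends on the thinning. With Kit or Elf5 read without thinning the log2 ratio of Foxa1 was -3.81, in place of -5.61. An N1ICD-EGFP cell with Foxa1 at 691 CPM had Kit at 2.28 CPM, and thinning left it outside the set. Cited1 had 1147 reads (19.7 CPM, 18.6 to 20.9) in the control and 1 read in N1ICD-EGFP, a ratio of 0.00074 (1.9e-05 to 0.0041). A count of 0 in these N1ICD-EGFP cells allows a share of up to 1.86% for either gene after thinning (upper Clopper-Pearson limit).

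The control level in this set came mostly from few cells. Of the control cells of the set, 19 also had 3 or more of the members other than Gata3, and no N1ICD-EGFP cell did. The 19 cells held 1108 of the 1147 Cited1 reads of the set, 2562 of 2779 for Foxa1, 3346 of 3822 for Pgr, 514 of 1232 for Tbx3, 37.9% of 718 for Esr1 and 4059 of 31756 for Gata3. Elf5 alone was read in 14 of the 19, Kit alone in 2 and both in 3. The median was 3 thinned Kit and Elf5 reads, 5 of the 19 had exactly 1, and Prlr was at 1000 CPM or more in 18. In the other control cells of the set Esr1 stood at 8.54 CPM, Pgr at 9.11, Foxa1 at 4.15, Cited1 at 0.747 and Tbx3 at 13.7 CPM, beside 2.84, 2.43, 0, 0.0146 and 39.3 CPM in the N1ICD-EGFP cells of the set.

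A stricter choice of cells also lowered the control level of Pgr, Foxa1 and Cited1, while that of Esr1 changed little (12.4 to 11.9 CPM with both genes read). In the 300 cells with reads of both Kit and Elf5 (54.8% of control and 41.3% of N1ICD-EGFP cells), Foxa1 stood at 3.24 CPM in the control and Cited1 at 0.596, both below the 5 CPM needed for a call. Esr1 (11.9 and 4.39 CPM, log2 ratio -1.26) and Pgr (12.3 and 3.17 CPM, -1.67) were still at least 1.5 times lower, so the count was 2 of 6 members. With at least 5 Kit or Elf5 reads it was 3, since Cited1 was at 3.36 CPM in those control cells. Without the cells of many genes it was 4, with Pgr at a log2 ratio of -3.58 in place of -4.28 and Cited1 at -3.22 in place of -4.35. The control level of Esr1 rests in part on a doubtful cell. A control cell with leukocyte markers and both Kit and Elf5 had Esr1 at 1292 CPM, the highest of any kept cell. Without leukocyte-marked cells the Esr1 ratio in cells with Kit or Elf5 was -1.59. The level with both genes read was not computed without that cell.

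**Figure D3:**
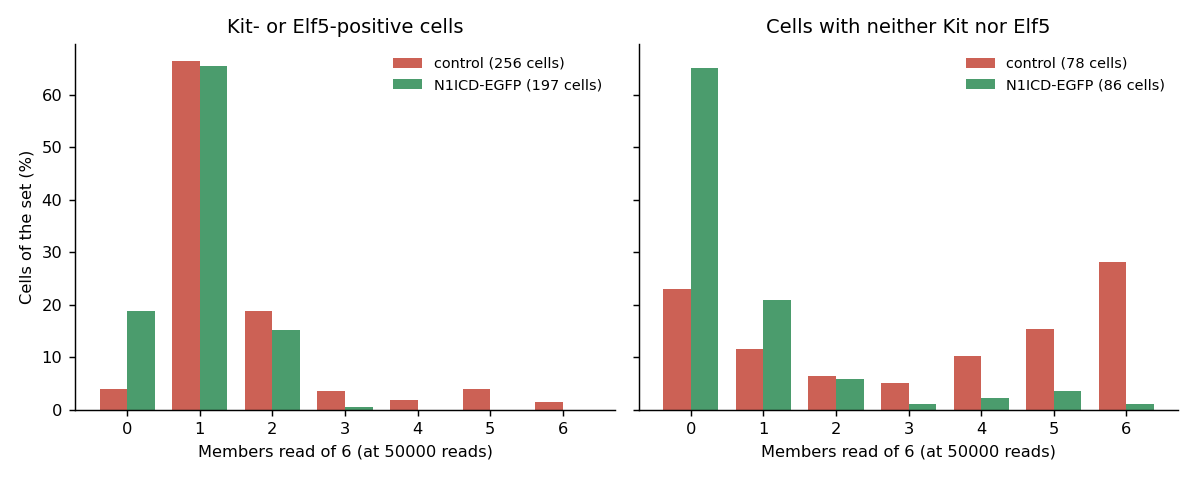
Percent of cells by the number of members read of 6 after thinning, for cells with a Kit or Elf5 read (left) and for cells with neither (right, 78 and 86 cells, of which 16 and 48 were leukocyte-marked). With Kit or Elf5, 1 member was read in 66.4% and 65.5% of cells, and cells with 4 or more are control cells alone. With neither, all 6 were read in 28.2% of control cells and 1.16% of cells from N1ICD-EGFP.

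Gata3 had close levels in the cells with Kit or Elf5. It stood at 546 CPM in the control (540.3 to 552) and 579.6 CPM in N1ICD-EGFP (574 to 585), a log2 ratio of 0.09, while it was read in 93.8% (90.05 to 96.4) and 78.7% (72.3 to 84.2) of them. Cells of this set with a Gata3 read were thus fewer on the N1ICD-EGFP plate, and the median level in cells with a read was 508 CPM against 485. Cells without any member made up 18.8% of the set in N1ICD-EGFP and 3.91% in the control.

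Tbx3 went the other way from the receptors. In cells with Kit or Elf5 it stood at 21.2 CPM in the control (20.03 to 22.4) and 39.3 CPM in N1ICD-EGFP (37.8 to 40.8), 1.85-fold higher, in close shares of cells (15.6%, 11.4 to 20.7, and 13.7%, 9.23 to 19.3). The median level in the cells with a read was 48.4 CPM in the control and 226.5 in N1ICD-EGFP. The log2 ratio of 0.86 was 1.51 in well columns 1 to 12 and 0.17 in columns 13 to 24, and it fell under 1.5 times with the stricter filter on cells (0.52) and with Kit or Elf5 read without thinning (0.29). The call therefore depends on those choices, while the direction was the same in all 16 alternatives.

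Cells with Tbx3 reads were compared with those without, on each plate. Among control cells with Kit or Elf5, the 40 with Tbx3 had Pgr at 212.5 CPM and Foxa1 at 180.8 CPM, against 36.99 and 21.7 CPM in those without Tbx3. Pgr was read in 12 of the 40 and Foxa1 in 9. Of the 40, 30 lay outside the 19 control cells described above, which held most Pgr and Foxa1 reads of the set. Those 19 were grouped in part on Tbx3 itself. Among the N1ICD-EGFP cells, the 27 with Tbx3 had no Esr1 or Foxa1 read and Pgr at 4.19 CPM. The 170 without Tbx3 had no Foxa1 read either, Pgr at 2.13 CPM and Esr1 at 3.33 CPM, with Esr1 read in 3.53% of them. The N1ICD-EGFP cells with Tbx3 had Krt14, a basal keratin, at 790.3 CPM against 72.8 CPM in the 170 cells without Tbx3, with Krt14 read in 10 of the 27. The alveolar genes Csn3, a casein, and Elf5 were lower in them, at 232.2 against 4437 CPM and 42.1 against 197.2 CPM, and Kit stood at 1009 against 870.4 CPM. The other basal markers did not follow Krt14, as Krt5 stood at 0.0997 CPM, Acta2 at 6.38 CPM and Trp63 at 0 in the cells with Tbx3. Control cells with Tbx3 were also higher in Krt14 (39.4 against 0.700 CPM) and lower in Csn3 (7680 against 14475 CPM), and there Krt5 (28.2 against 1.996 CPM), Acta2 (217.2 against 36.8 CPM) and Trp63 (12.8 against 0.391 CPM) were higher too. These basal levels rest on few control cells. Of the 40 with Tbx3, Krt14 was read in 2, Krt5 in 3, Trp63 in 3 and Acta2 in 11. The part of other cell types in this was not tested.

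In the cells with neither Kit nor Elf5 and fewer than 3 leukocyte markers, 62 control and 38 N1ICD-EGFP, the members other than Gata3 were lower in N1ICD-EGFP. The share of all genes that were lower was not computed for this set, so these values have no baseline over genes. Foxa1 stood at 323.7 CPM on the control plate and 88.6 CPM in N1ICD-EGFP, and Cited1 at 386 and 78.04. Pgr stood at 323.5 and 124.4 CPM, Esr1 at 69.8 and 18.03 and Tbx3 at 136.2 and 46.4 (log2 ratio -1.53). Gata3 stood at 598 and 495 CPM. Foxa1 was read in 45 of the 62 control cells and 6 of the 38 N1ICD-EGFP cells. This set held markers of other cells on both plates. On the N1ICD-EGFP plate the 3 fibroblast markers summed to 1451 CPM and the 3 endothelial markers to 468 CPM, against 96.96 and 74.3 CPM in the control. The 5 basal markers summed to 1160 CPM in N1ICD-EGFP and 1430 CPM in the control. The 6 luminal progenitor and alveolar genes summed to 2687 and 1072.5 CPM. The fibroblast-marked cell described above lies in this set. Without such cells (60 control and 36 N1ICD-EGFP cells left) Pgr stood at 333.7 and 68.8 CPM, 4.85-fold lower, and Esr1 at 71.99 and 9.26 CPM, 7.78-fold lower, while Foxa1 was 3.47-fold, Cited1 4.70-fold and Tbx3 2.69-fold lower. The part of the cells with endothelial, basal or luminal progenitor markers was not tested.

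**Figure D4:**
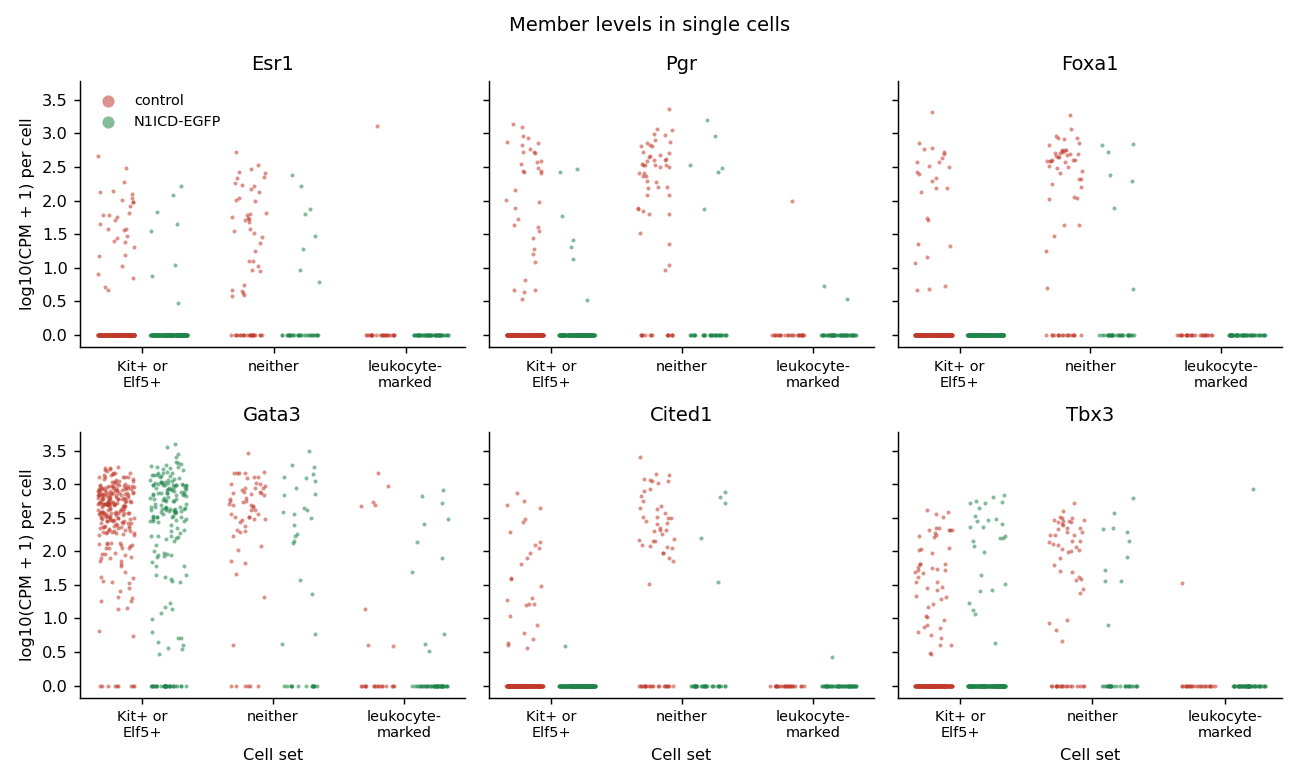
Level of each member in single cells, as log10(CPM + 1), for control (red) and N1ICD-EGFP (green) cells that had a Kit or Elf5 read, neither, or 3 or more leukocyte markers (these last are shown only there). Points at 0 are cells with no read. Foxa1 has no point above 0 in N1ICD-EGFP cells with Kit or Elf5, Gata3 fills that set on both plates, and the highest Esr1 point is the leukocyte-marked control cell.

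Leukocyte-marked cells, which should lack most of these genes, were read at a median depth of 207726 reads in the control and 356180 in N1ICD-EGFP. Of them 8 control and 6 N1ICD-EGFP cells also had a Kit or Elf5 read, among them the control cell with Esr1 at 1292 CPM and an N1ICD-EGFP cell with Tbx3 at 835 CPM. In the other 16 control and 48 N1ICD-EGFP cells no read of Esr1, Pgr, Foxa1, Cited1 or Tbx3 was left after thinning, which allows shares of up to 20.6% and 7.40% (upper Clopper-Pearson limits). Without thinning the 48 cells held 2 Pgr reads and 1 Cited1 read, and the 16 none. Gata3, which also acts in T cells, was read in 2 of the 16 and 4 of the 48. Over all leukocyte-marked cells it was read in 3 of 7 and 6 of 10 with the T cell gene Cd3g, against 4 of 17 and 2 of 44 of the others. The shares of N1ICD-EGFP cells with Kit or Elf5 that had Esr1 (3.05%) or Pgr (2.03%) lie below 7.40%. Their levels were higher, at 2.84 CPM (2.45 to 3.27) for Esr1 and 2.43 CPM (2.07 to 2.83) for Pgr, against 0 (up to 0.217) and 0.118 CPM (0.0142 to 0.425) in the 48 leukocyte-marked cells.

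**Figure D5:**
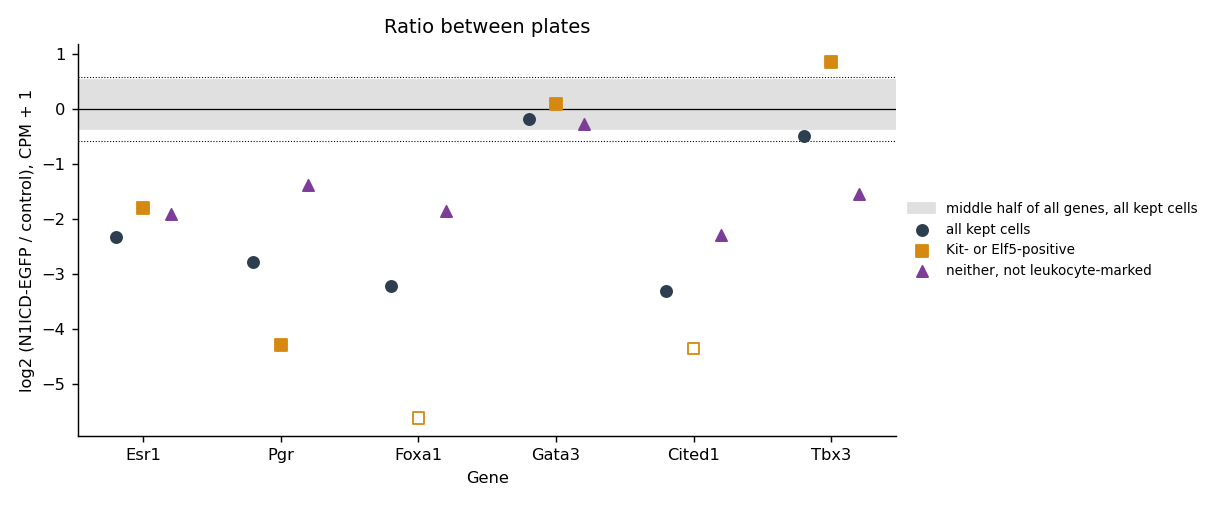
Log2 ratio of each member between the plates (N1ICD-EGFP over control, CPM + 1) over all kept cells (circles), cells with Kit or Elf5 (squares) and cells with neither that were not leukocyte-marked (triangles). Open squares rest on 3 reads or fewer in N1ICD-EGFP, dotted lines mark 1.5 times, and the grey band is the interquartile range of all genes tested over all kept cells. Esr1, Pgr, Foxa1 and Cited1 lie below the band in every set, Gata3 lies within it, and Tbx3 has a square above 0 (0.86) and a triangle below it (-1.53).

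Partners and targets of the hormone-sensing programme were lower with the members. Of 9 measured genes 8 were at least 1.5 times lower over all kept cells and none higher, against 16.7% and 22.5% of all genes tested. Prlr, the prolactin receptor, went from 2650.0 to 177.6 CPM, Msx2, a homeobox gene, from 66.8 to 3.82 CPM, and the Wnt ligand Wnt4, which progesterone induces, from 103.7 to 11.3 CPM. Ly6a was the gene that was not lower (215.8 and 321.9 CPM), and Tnfsf11 (RANKL) and Greb1 were below 5 CPM on both plates. In cells with Kit or Elf5 8 of 9 were lower, against 18.4% of all genes, with the growth factor Areg at 143.5 and 0.468 CPM and Prlr at 1029 and 38.4 CPM. Apart from the 19 control cells described above Areg stood at 12.9 CPM and Prlr at 170.3 CPM in that set, and Wnt4 at 4.25 CPM in the control beside 10.3 CPM in N1ICD-EGFP. Once those cells were set aside 7 partner genes were measured, of which 5 were lower and 1 was higher. Their median log2 ratio was -1.44, in place of -2.88, and Wnt4 went from lower to higher. The share over all genes was not computed without those cells.

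Other nuclear receptors did not share one direction. The mineralocorticoid receptor Nr3c2 was lower over all cells (32.2 to 15.01 CPM, log2 ratio -1.05) and the retinoic acid receptor Rara was higher (20.3 to 35.97 CPM). The glucocorticoid receptor Nr3c1 stood at 29.6 CPM in the 61 control cells with 3 or more members other than Gata3 and at 186.1 CPM in the others, and over all cells at 147.4 and 128.8 CPM on the control and N1ICD-EGFP plates. Of 12 coregulators and chaperones, a share of calls no larger than over all genes, 1 was lower (Nrip1, a corepressor, 104.8 to 53.9 CPM) and 2 were higher (the coactivator Ncoa3, 84.95 to 244.1 CPM, and the methyltransferase Kmt2d, 144.2 to 234.1 CPM).

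Paralogs of the members behaved apart from them. Cited2 (112.98 and 93.5 CPM) and Cited4 (280.5 and 405 CPM) were the 2 of 6 measured and were within 1.5 times between the plates. On the control plate they had the reverse distribution of Cited1. Cited4 stood at 49.7 CPM in the 61 cells with 3 or more members and at 356.2 CPM in the others, and Cited2 at 14.9 and 145.2 CPM. Foxa2, Foxa3, Gata2 and Tbx2 were below 5 CPM on both plates.

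The 10 genes whose levels followed the members most closely over the control cells were Tmem56, Slc7a2, Prlr, Gipc2, Tspan1, Cdo1, Agtr1a, Cxcl15, Arg2 and Slc5a5. Their Pearson correlation with the mean standardised level of the 6 members ran from 0.86 for Tmem56 to 0.83 for Slc5a5, out of 8481 genes ranked, and over the N1ICD-EGFP cells from 0.63 to 0.77. Of these, Slc7a2 is a carrier of cationic amino acids, Agtr1a an angiotensin receptor, Cdo1 the cysteine dioxygenase, Arg2 the mitochondrial arginase and Slc5a5 the iodide transporter. All 10 were at least 1.5 times lower on the N1ICD-EGFP plate, from 4.94-fold for Slc5a5 to 15.97-fold for Cxcl15, against 16.7% of all genes tested. The 10 were picked for following the members over these same control cells, so their lower level is not separate evidence. Among the members themselves Pgr and Foxa1 had the highest correlation over control cells (0.83), and Esr1 and Gata3 the lowest (0.02). Over N1ICD-EGFP cells Foxa1 and Cited1 had the highest (0.76), and Tbx3 with any other member stayed at or below 0.13. Cells share depth and cell type, so these values are descriptions.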

How the data were processed

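Per the labels and the file headers, the authors deposited 1 count table per plate, with whole unnormalised read counts for each gene (24490 rows) in each well. Per the submitters' processing notes reads were aligned with STAR to mm10; their versions, the counter and its use of strand are not stated in the sources used here. Rows sharing a gene name (492 repeats) were summed, and eGFP was kept out of the totals.

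Counts of kept cells were summed and scaled to CPM. Ratios are log2 of CPM plus a pseudocount of 1. A gene was called lower or higher past 1.5 times, at 5 CPM or more on either plate. With 1 plate per genotype no test or p-value was computed. Thinning drew 50000 reads per cell without replacement (seed 0). Kit- or Elf5-positive means at least 1 such read, and leukocyte-marked at least 3 of 10 markers read. No doublets were called in the main values, as single cells were sorted. Lists were summarised by counts with up to 3 genes named in each direction, and the 10 genes most like the members were ranked among genes read in at least 10% of control cells. Of the list of other nuclear receptors, 1 gene is not reported here. Members and lists were chosen with earlier results of these data known. Exon lengths come from GENCODE (union of exons), places and promoter windows from RefSeq tables. The code was tested on simulated data. Python 3.11.15, numpy 2.4.6, pandas 2.3.3, scipy 1.17.1 and matplotlib 3.10.9 were used.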

Additional observations from a re-analysis of the deposited data

Results flagged for a closer look

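Tbx3 had opposite directions in different cells. It was higher in N1ICD-EGFP cells with Kit or Elf5 (log2 ratio 0.86) and lower in cells with neither that were not leukocyte-marked (-1.53). With 1 plate per genotype the difference was not tested.

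The wells left out for few reads or genes also held Esr1. Over such wells of the N1ICD-EGFP plate (26.3% of wells) it stood at 49.99 CPM (79 reads, of which 60 were in 1 well), against 17.9 CPM (24 reads) in 50 control wells (13.02%), a ratio of 2.80 (1.75 to 4.62, exact conditional interval for counting error only). Without that 1 well it stood at 12.2 CPM (19 reads), below the 17.9 CPM of all 50 control wells. Of the 24 control reads 16 were also in 1 well, which was not left out, so these 2 values are not alike. The direction in such wells rests on few wells of either plate. The kept cells were lower in N1ICD-EGFP. No other member was above the control in these wells beyond counting error.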

How the results depend on the processing

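The count of members lower by 1.5 times over all kept cells was 4 or 5 in 12 alternatives, the fifth being Tbx3 in well columns 13 to 24. In cells with Kit or Elf5 it was 4, except for 3 with at least 5 reads and 2 with both genes read or without cells of 3 or more members (an alternative added after seeing the data), where Foxa1 and Cited1 fell below 5 CPM. The share of control cells with 2 or more members (38.02%) was 30.3% without the cells of many genes (possible doublets), 44.9% with no thinning, 30.2% thinned to 20000 reads and 31.7% when 2 reads were needed. The N1ICD-EGFP share ran from 12.1% to 18.3%. No member past 1.5 times changed sign in any alternative. Alternatives on a minimum of 20000 reads leave the shares on cells with at least 50000, since those are thinned to that depth. No paired analysis was possible because the labels give no replicate numbers that link cells of the plates. In N1ICD-EGFP cells with Kit or Elf5 the Foxa1 and Cited1 values rest on 0 and 1 reads, so the size of their ratios is not well measured.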
